A study of Mus musculus with 13 samples.

Results

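The fibroblast growth factor (FGF) genes described here are 10 of the 39171 genes in a deposited expression table, taken by symbol. They comprise the receptor genes Fgfr1, Fgfr2, Fgfr3 and Fgfrl1, the ligand genes Fgf1, Fgf2 and Fgf9, and the feedback genes Spry1, Spry2 and Spry4. RNA was sequenced from astrocytes and microglia purified by flow cytometry out of the spinal cords of C57BL/6 mice that lacked Il33 (KO) or were littermate controls (WT). The product of Il33, interleukin-33, is an IL-1 family cytokine. The 13 libraries were 4 of KO astrocytes, 3 of WT astrocytes, 3 of KO microglia and 3 of WT microglia. Astrocytes of both genotypes carried green fluorescent protein under the astrocyte gene Aldh1l1 and were sorted by it, and microglia were sorted by the surface protein CD11b. The Il33 allele is named in the series' design text only by a citation, and whether a pair of libraries came from the same animal is not given in the sources used here. Every microglia library and 5 astrocyte libraries were taken at postnatal day 12, while KO astrocyte library 2 and WT astrocyte library 3 were taken at day 9. Libraries are called biological replicates in the design text.

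FGF ligands bind receptor tyrosine kinases together with heparan sulfate chains on the cell surface, and the activated receptors signal through the adaptor FRS2 and the RAS-ERK cascade. Sprouty proteins are induced by that cascade and dampen it, which makes their genes a common readout of receptor signalling. In the spinal cord, FGF signalling patterns progenitors and bears on the maturation of glia, and Fgfr3 is widely used as a marker of astrocytes and their progenitors.

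Promoter windows of 7 of the 10 genes were found by symbol in RefSeq sequences on GRCm38.p6, while Fgfr1, Fgf1 and Spry4 had no entry. The windows of 4 genes are shown because the results turn on these genes: Fgfr3 is the most abundant of the 10 in astrocytes, Fgfrl1 is the gene whose KO and WT microglia did not overlap, and Spry1 and Spry2 belong to the same family with unlike patterns across the cell types. Each is written 5′ to 3′ along the gene's strand and, except for Fgfr3, ends at the base before the RefSeq start. The Fgfr3 sequence is the first 200 bases of its window, since the last 50 lie in an exon of the GENCODE annotation. The Fgfrl1 window lies inside the GENCODE model of the gene, which begins at 108692382, with 0 bases in its exons. Capitals mark matches, on either strand, to the letters GGGCGG (GC box), TTGGC (nuclear factor I half-site), ACAAAG (SOX family), CCGGAAG (ETS family) and CACGTG (E-box).
Fgfr3, chr5:33721474-33721673, plus strand: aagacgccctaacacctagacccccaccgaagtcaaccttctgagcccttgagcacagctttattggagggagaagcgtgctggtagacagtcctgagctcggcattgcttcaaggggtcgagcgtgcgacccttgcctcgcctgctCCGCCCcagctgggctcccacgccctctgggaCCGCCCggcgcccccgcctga
Fgfrl1, chr5:108693979-108694228, plus strand: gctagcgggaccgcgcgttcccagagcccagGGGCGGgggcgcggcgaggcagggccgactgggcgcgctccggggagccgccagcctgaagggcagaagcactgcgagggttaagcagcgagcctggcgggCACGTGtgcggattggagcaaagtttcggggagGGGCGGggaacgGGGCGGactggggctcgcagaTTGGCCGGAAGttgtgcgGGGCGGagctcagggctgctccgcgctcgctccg
Spry1, chr3:37639697-37639946, plus strand: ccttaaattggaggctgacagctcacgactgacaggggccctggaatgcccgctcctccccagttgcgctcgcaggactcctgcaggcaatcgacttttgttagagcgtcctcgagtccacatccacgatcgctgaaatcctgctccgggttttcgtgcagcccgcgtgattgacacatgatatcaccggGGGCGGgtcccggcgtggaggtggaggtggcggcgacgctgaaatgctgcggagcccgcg
Spry2, chr14:105896820-105897069, minus strand: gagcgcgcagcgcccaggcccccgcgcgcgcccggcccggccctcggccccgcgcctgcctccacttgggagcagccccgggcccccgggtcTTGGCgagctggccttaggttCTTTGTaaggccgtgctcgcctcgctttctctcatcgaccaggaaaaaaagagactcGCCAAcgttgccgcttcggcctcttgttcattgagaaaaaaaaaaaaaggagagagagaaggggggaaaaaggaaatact

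The GC box letters occurred 4 times in the Fgfrl1 window, 3 times in the 250 bases of the Fgfr3 window (2 of them in the stretch shown) and once before Spry1, and were not found before Spry2. Of the 32817 RefSeq windows of the same length, 32.7% held them. The letters TTGGC, held by 41.5% of all windows, occurred 2 times before Spry2 and once in the Fgfrl1 window. Spry2 also had ACAAAG, found in 16.5% of windows. The Fgfrl1 window held CCGGAAG, found in 6.90% of windows, sharing 1 base with its TTGGC match, and CACGTG, found in 6.02%. None of the 4 windows held TGACGTCA (cAMP response element), which occurred in 1.55% of all windows. None held a TATA box, searched as TATAAA and found in 12.4% of windows. RefSeq holds another Fgfr3 window, at 33722056 to 33722305, which is not shown and had 2 GC boxes and 72.8% G and C. Bases G and C made up 66.8% of the Fgfr3 window shown in part, 73.6% of that of Fgfrl1 and 62.4% of those of Spry1 and Spry2, against a median of 52.4% over all windows. These matches are letters in a window and were not tested as binding sites.

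Expression is given in FPKM, fragment counts divided by transcript length and library size, which puts genes of different length on 1 scale. Relative to KO microglia library 2, depth was estimated from low FPKM values at 33.8% to 62.7% in astrocyte libraries and 67.5% to 100% in microglia libraries. By this estimate low values would be noisier in astrocytes. In each library 1 gene held a large share of the summed FPKM, 26.6% to 38.9% in astrocytes and 11.6% to 32.5% in microglia. Il33 averaged 1.37 ± 0.931 FPKM in KO astrocytes and 106 ± 8.51 FPKM in WT astrocytes (SD, n = 4 and 3), in the direction of the labels. The summed level of 10 astrocyte markers ranged over 9016 to 15063 FPKM in KO astrocytes, 9344 to 16984 in WT astrocytes, 87.1 to 135 in KO microglia and 93.3 to 145 in WT microglia. One of them, the glutamate transporter gene Slc1a2, is listed at 0 in KO astrocyte library 3 and WT astrocyte library 1 and had 1631 to 3996 FPKM in the other 5 astrocyte libraries, so an exact 0 in this table may be a missing estimate. Without Slc1a2, left out after its values were seen, the sums were 7319 to 11712 FPKM in KO astrocytes and 7713 to 12987 FPKM in WT astrocytes. The summed level of 10 microglia markers was 9471 to 10000.4 FPKM in KO microglia, 9073 to 9933 in WT microglia and at most 70.1 in any astrocyte library. Aldh1l1 averaged 86.4 FPKM in KO astrocytes, 91.3 in WT astrocytes, 0.528 in KO microglia and 0.206 in WT microglia, and Itgam, which encodes CD11b, 2.68, 4.31, 554 and 618 FPKM in the same order of groups. Markers of myelinating oligodendrocytes were present in all 13 libraries, at 5743 to 8184 summed FPKM in KO astrocytes, 4551 to 6298 in WT astrocytes, 1614 to 2645 in KO microglia and 1073 to 1822 in WT microglia. WT astrocyte library 2, the shallowest by the depth estimate, stood apart for Fgf9 and Spry1, as given with those genes. In the log2(FPKM + 1) values, libraries of 1 group correlated at 0.872 to 0.898 in WT microglia and at 0.920 to 0.946 in the other groups.

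The first comparison asked where the FGF genes are expressed, by setting astrocytes against microglia within each genotype. Of the 10 genes, 8 were higher in astrocytes than in microglia in KO and in WT mice, with a limma adjusted p under 0.05 over all 16258 genes tested. The exceptions in both genotypes were Fgf9 and Spry1. Among all genes, 25.1% were called higher in KO astrocytes and 24.5% in WT astrocytes. The median difference of the 10 genes was 3.56 between KO astrocytes and KO microglia and 4.36 between WT astrocytes and WT microglia on the log2(FPKM + 1) scale, beside -0.24 and -0.21 over all genes. The same 8 genes were also free of overlap between the cell types in each genotype, as were 28.1% (KO) and 25.7% (WT) of all genes in that direction. Markers of other cells were also called higher in the astrocyte libraries. These were 9 of 10 myelinating oligodendrocyte markers in each genotype, and 7 (KO) and 4 (WT) of 9 neuron markers tested, with 0 lower. The part of such cells in the astrocyte values was not tested. In sorted bulk samples, fewer cells of a type and less RNA per cell cannot be told apart.

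**Figure D1:**
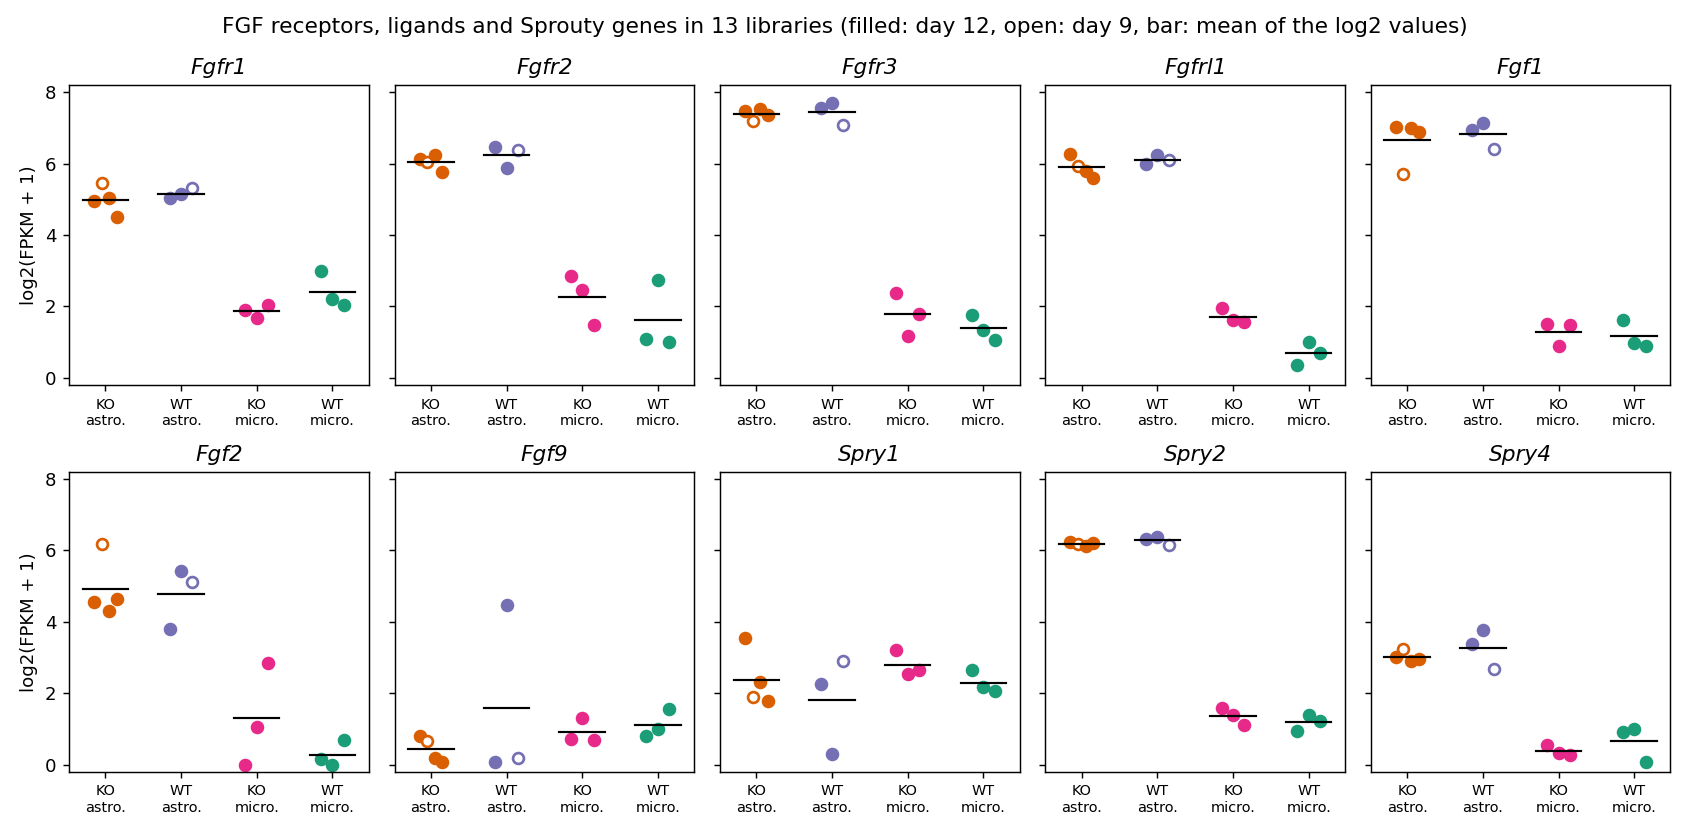
Expression of the 10 genes in each of the 13 libraries, as log2(FPKM + 1), by genotype and cell type; filled points are day 12, open points day 9, and bars the mean of the log2 values. Of the 10 genes, 8 sit higher in all 7 astrocyte libraries than in all 6 microglia libraries, and Fgf9 and Spry1 do not.

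The tyrosine kinase receptors are encoded by Fgfr1 to Fgfr3, and Fgfrl1 encodes a related membrane protein that binds FGF and lacks the kinase domain. Fgfr3 lies on chromosome 5 at 33721674 to 33737068 (GRCm38, plus strand, as are all coordinates below unless given as minus). It had 176, 144, 184 and 162 FPKM in KO astrocytes and 188, 205 and 133 FPKM in WT astrocytes, in the order of the library numbers. In microglia it had 4.16, 1.27 and 2.48 FPKM in KO and 2.41, 1.53 and 1.08 FPKM in WT libraries. Fgfr3 was the highest of the 10 genes in each of the 7 astrocyte libraries, and its mean stood above 96.3% of the genes of at least 1 FPKM in KO astrocytes and 96.4% in WT astrocytes. Astrocytes exceeded microglia by 5.70 (SE 0.28, limma adjusted p = 4.71e-08) in KO and 6.18 (SE 0.30, adjusted p = 6.05e-08) in WT mice on the log2(FPKM + 1) scale. As a ratio of mean FPKM, this was 63.1 in KO and 105 in WT. A gene model on the other strand, G630022F23Rik, shares 998 exonic bases (13.9%) with Fgfr3, and with no strand of counting stated, reads there could belong to either gene.

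Fgfr2, on chromosome 7, had 69.1, 65.5, 75.2 and 53.8 FPKM in KO astrocytes and 87.8, 58.2 and 82.0 FPKM in WT astrocytes. Its microglia values were 6.16, 4.47 and 1.80 FPKM in KO and 1.13, 5.72 and 1.02 FPKM in WT libraries, a wide spread in which 3 of the 6 libraries stood above 4 FPKM. The log2 difference of astrocytes from microglia was 3.77 (SE 0.46, limma adjusted p = 4.50e-05) in KO and 4.60 (SE 0.50, adjusted p = 2.18e-05) in WT mice. Its GENCODE model, 130162451 to 133123350 on the minus strand, shares 314 exonic bases with Ctbp2 on the same strand, which is 3.04% of its exonic length, so some reads could belong to either gene.

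Fgfr1, on chromosome 8 at 25513654 to 25575718, had 29.8, 43.0, 31.7 and 21.9 FPKM in KO astrocytes and 31.9, 34.1 and 38.6 FPKM in WT astrocytes. In microglia it had 2.75, 2.23 and 3.15 FPKM in KO and 7.003, 3.59 and 3.10 FPKM in WT libraries. It had the smallest log2 difference among the 4 receptor genes, at 3.00 (SE 0.26, limma adjusted p = 3.52e-06) in KO and 2.60 (SE 0.28, adjusted p = 2.24e-05) in WT mice. Microglia held 8.57% of the astrocyte mean in KO and 13.1% in WT mice for Fgfr1, against 1.59% and 0.955% for Fgfr3.

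Fgfrl1, on chromosome 5 at 108692382 to 108706924, had 75.3, 60.2, 53.9 and 47.5 FPKM in KO astrocytes and 62.4, 73.8 and 67.3 FPKM in WT astrocytes, close to Fgfr2. Astrocytes exceeded microglia by 4.18 (SE 0.23, limma adjusted p = 1.03e-07) in KO and 5.41 (SE 0.25, adjusted p = 3.73e-08) in WT mice on the log2 scale. In microglia its mean was 3.88% of that in astrocytes in KO and 0.937% in WT mice. The summed astrocyte markers in microglia were 0.870% (KO) and 0.922% (WT) of their level in astrocytes, or 0.775% and 0.909% without Slc1a2. The oligodendrocyte precursor markers stood at 8.06% and 10.4% and the myelinating oligodendrocyte markers at 33.5% and 27.1%. Olig1 made up most of the precursor sum in astrocytes, at 390 of 517 FPKM in KO and 380 of 484 FPKM in WT. It averaged 12.9 and 12.5 FPKM in KO and WT microglia. Pdgfra, another precursor marker, averaged 1.81 and 0.789 FPKM in KO and WT astrocytes against 1.58 and 2.61 FPKM in KO and WT microglia. The part of all these cells in the microglia values was not tested. By mean, the receptors in astrocytes ran Fgfr3, Fgfr2, Fgfrl1 and Fgfr1 in both genotypes, with overlapping ranges for Fgfr2 and Fgfrl1 and none for Fgfr1 against any of the others. Fgfr4, the remaining kinase receptor, reached at most 0.352 FPKM in any library.

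Among the ligands, Fgf1 and Fgf2 encode proteins that leave the cell without a classical signal peptide, and Fgf9 encodes a secreted ligand first known as a glia-activating factor. Fgf1, on chromosome 18 at 38838673 to 38929472 (minus strand), had 129.9, 51.4, 127 and 117 FPKM in KO astrocytes and 121, 140.1 and 83.4 FPKM in WT astrocytes. In microglia it had 1.84, 0.842 and 1.80 FPKM in KO and 2.06, 0.986 and 0.866 FPKM in WT libraries. The lowest value of each astrocyte genotype was the day 9 library. The log2 difference between the cell types was 5.61 (SE 0.25, limma adjusted p = 2.34e-08) in KO and 5.98 (SE 0.27, adjusted p = 3.34e-08) in WT mice, and the ratio of means was 71.2 and 88.1.

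Fgf2, on chromosome 3 at 37348346 to 37410108, had 22.7, 71.6, 18.8 and 23.7 FPKM in KO astrocytes and 13.0, 41.4 and 33.5 FPKM in WT astrocytes. Fgf1 was above it in 6 of the 7 astrocyte libraries, the exception being the day 9 KO library. In microglia Fgf2 was listed at 0 in KO library 1 and WT library 2, and the others held 1.07 and 6.16 FPKM in KO and 0.109 and 0.620 FPKM in WT libraries. Astrocytes exceeded microglia by 3.34 (SE 0.63, limma adjusted p = 0.00102) in KO and 4.12 (SE 0.69, adjusted p = 0.000477) in WT mice on the log2(FPKM + 1) scale. Fgf2 shares 640 exonic bases (9.44% of its exonic length) with Nudt6 on the other strand, and with no strand of counting stated, reads there could belong to either gene.

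Fgf9, on chromosome 14 at 58070547 to 58112720, was below 2 FPKM in 12 of the 13 libraries. KO astrocytes had 0.748, 0.576, 0.135 and 0.0600 FPKM, and WT astrocytes had 0.0469, 21.2 and 0.135 FPKM. KO microglia had 0.652, 1.48 and 0.627 FPKM, and WT microglia had 0.743, 0.996 and 1.93 FPKM. The 21.2 FPKM of WT astrocyte library 2 stood alone, and that library was the shallowest of the series by the depth estimate. The cell types did not pass the test in either genotype, with log2 differences of -0.27 (limma adjusted p = 0.823) in KO and 0.73 (adjusted p = 0.552) in WT mice, and without WT astrocyte library 2 Fgf9 was under the expression minimum.

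Sprouty proteins inhibit the RAS-ERK cascade downstream of receptor tyrosine kinases. Spry2, on chromosome 14 at 105891947 to 105896819 (minus strand), was the most even of the 10 genes in astrocytes, with 74.7, 70.7, 68.7 and 72.4 FPKM in KO and 78.9, 82.5 and 70.1 FPKM in WT libraries. In microglia it had 1.98, 1.61 and 1.17 FPKM in KO and 0.919, 1.62 and 1.34 FPKM in WT libraries. Astrocytes exceeded microglia by 4.85 (SE 0.18, limma adjusted p = 7.16e-09) in KO and 5.13 (SE 0.19, adjusted p = 1.14e-08) in WT mice on the log2 scale. Spry2 was above Spry1 and Spry4 in each of the 7 astrocyte libraries.

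Spry4, on chromosome 18 at 38586247 to 38601415 (minus strand), had 7.04, 8.45, 6.43 and 6.81 FPKM in KO astrocytes and 9.38, 12.5 and 5.36 FPKM in WT astrocytes. It stayed below 1 FPKM in every microglia library, with 0.468, 0.252 and 0.203 FPKM in KO and 0.894, 0.980 and 0.0563 FPKM in WT. The log2 difference was 2.71 (SE 0.31, limma adjusted p = 3.09e-05) in KO and 2.69 (SE 0.34, adjusted p = 6.77e-05) in WT mice, and on the log2(FPKM + 1) scale it understates the change of so low a gene.

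Spry1, on chromosome 3 at 37639947 to 37644598, was the highest Sprouty gene in each of the 6 microglia libraries, with 8.19, 4.80 and 5.33 FPKM in KO and 5.25, 3.55 and 3.16 FPKM in WT. Astrocytes had 10.6, 2.75, 3.99 and 2.41 FPKM in KO and 3.77, 0.226 and 6.47 FPKM in WT, so the cell types overlapped. The log2 difference of astrocytes from microglia was -0.52 (SE 0.61, limma adjusted p = 0.488) in KO and -0.62 (SE 0.67, adjusted p = 0.452) in WT mice, with 95% intervals of -1.88 to 0.83 and -2.10 to 0.86. Without WT astrocyte library 2, which held 0.226 FPKM, the WT difference was 0.34. A gene model on the other strand covers 710 exonic bases (24.4%) of Spry1, so antisense reads may be included.

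The other genes of the pathway were taken from 6 lists that hold 85 genes, of which 62 were tested between cell types. In KO mice 29 of these were higher in astrocytes, 12 lower and 21 did not pass, and in WT mice 24 were higher, 12 lower and 26 did not pass (limma, adjusted over all genes). Among all genes tested, 25.1% were higher and 31.9% lower in KO astrocytes, and 24.5% were higher and 29.1% lower in WT astrocytes. Of 5 co-receptors and ligand carriers tested, 4 were higher in astrocytes in each genotype. They included the adhesion molecules Ncam1, at 347 and 314 FPKM in KO and WT astrocytes against 8.60 and 8.49 FPKM in KO and WT microglia, and Cdh2, at 66.6 and 72.5 against 1.58 and 2.01 FPKM. Flrt1, whose product binds FGF receptors, had 40.1 and 38.5 FPKM in KO and WT astrocytes against 0.649 and 1.07 FPKM in the microglia.

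Among 17 tested heparan sulfate genes, 11 were higher in astrocytes in each genotype, while 2 were lower in KO and 3 lower in WT astrocytes. The core proteins syndecan-2 (Sdc2), glypican-5 (Gpc5), syndecan-3 (Sdc3) and syndecan-4 (Sdc4) were among the 3 largest differences in 1 or both genotypes. Sdc2 averaged 133 and 129.9 FPKM in KO and WT astrocytes against 2.53 and 0.869 FPKM in KO and WT microglia. Gpc5 averaged 82.4 and 80.3 FPKM in KO and WT astrocytes against 1.24 and 0.750 FPKM in the microglia. Sdc3 averaged 352 and 421 against 15.4 and 18.1 FPKM, and Sdc4 231 and 234 against 9.50 and 11.3 FPKM. Lower in astrocytes were the glypican Gpc2, at 1.05 and 0.597 FPKM against 12.3 and 11.99 FPKM, and the sulfotransferase Ndst2, at 2.07 and 2.60 FPKM against 14.4 and 12.3 FPKM. In WT mice Sulf2, an enzyme that removes sulfate from these chains, was also lower in astrocytes (log2 difference -1.09, limma adjusted p = 0.0151).

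The 21 adaptors and RAS-ERK relay genes were all tested. In KO mice 6 were higher in astrocytes and 5 lower, and in WT mice 2 were higher and 3 lower, beside the shares of all genes given above. The adaptor gene Shc1 had 3.83 and 4.41 FPKM in KO and WT astrocytes against 20.3 and 19.7 FPKM in KO and WT microglia. Grb2, whose product links receptors to RAS activation, was lower in astrocytes by log2 differences of -0.95 (limma adjusted p = 0.00460) in KO and -0.76 (adjusted p = 0.0249) in WT mice, as was Cbl (-1.27 and -0.74). Higher in astrocytes in WT mice were Crkl (1.19) and Frs2 (0.95), the gene of the main FGF receptor adaptor. In KO mice the largest positive differences were those of Hras (1.40), Sos2 (1.24) and the phosphatase gene Ptpn11 (0.96), all called.

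Of 12 tested ERK-induced targets and feedback genes, 6 were higher and 5 lower in KO astrocytes, and 5 were higher and 5 lower in WT astrocytes, again to be read against those shares of all genes. Etv4, a transcription factor gene induced by FGF, averaged 41.5 and 51.6 FPKM in KO and WT astrocytes against 0.743 and 1.42 FPKM in KO and WT microglia. Spred2, a Sprouty-related inhibitor, had 83.1 and 72.3 FPKM against 9.07 and 10.9 FPKM, and Il17rd, another inhibitor of FGF signalling, 4.82 and 5.598 FPKM against 0.0939 and 0.199 FPKM. The immediate-early genes Egr1, Fos and Myc went the other way. Egr1 averaged 5.05 and 3.61 FPKM in KO and WT astrocytes against 470 and 671 FPKM in KO and WT microglia. Fos averaged 4.16 and 1.98 against 64.5 and 93.9 FPKM, and Myc 12.04 and 12.2 against 81.3 and 126 FPKM.

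Of 15 other secreted ligands, 6 were listed at 0 in all libraries and 12 never reached 1 FPKM, which left Fgf5, Fgf7 and Fgf18 for the test. Fgf5 was lower in WT astrocytes, at 0.614 FPKM against 4.38 FPKM in WT microglia (log2 difference -1.60, limma adjusted p = 0.00340), and was the only other secreted ligand called. The 4 FGF homologous factors stay inside the cell and do not act through FGF receptors in the usual way. Fgf12 and Fgf14 were higher in astrocytes in both genotypes, with log2 differences of 2.30 and 2.08 in KO and 1.66 and 2.73 in WT mice.

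**Figure D2:**
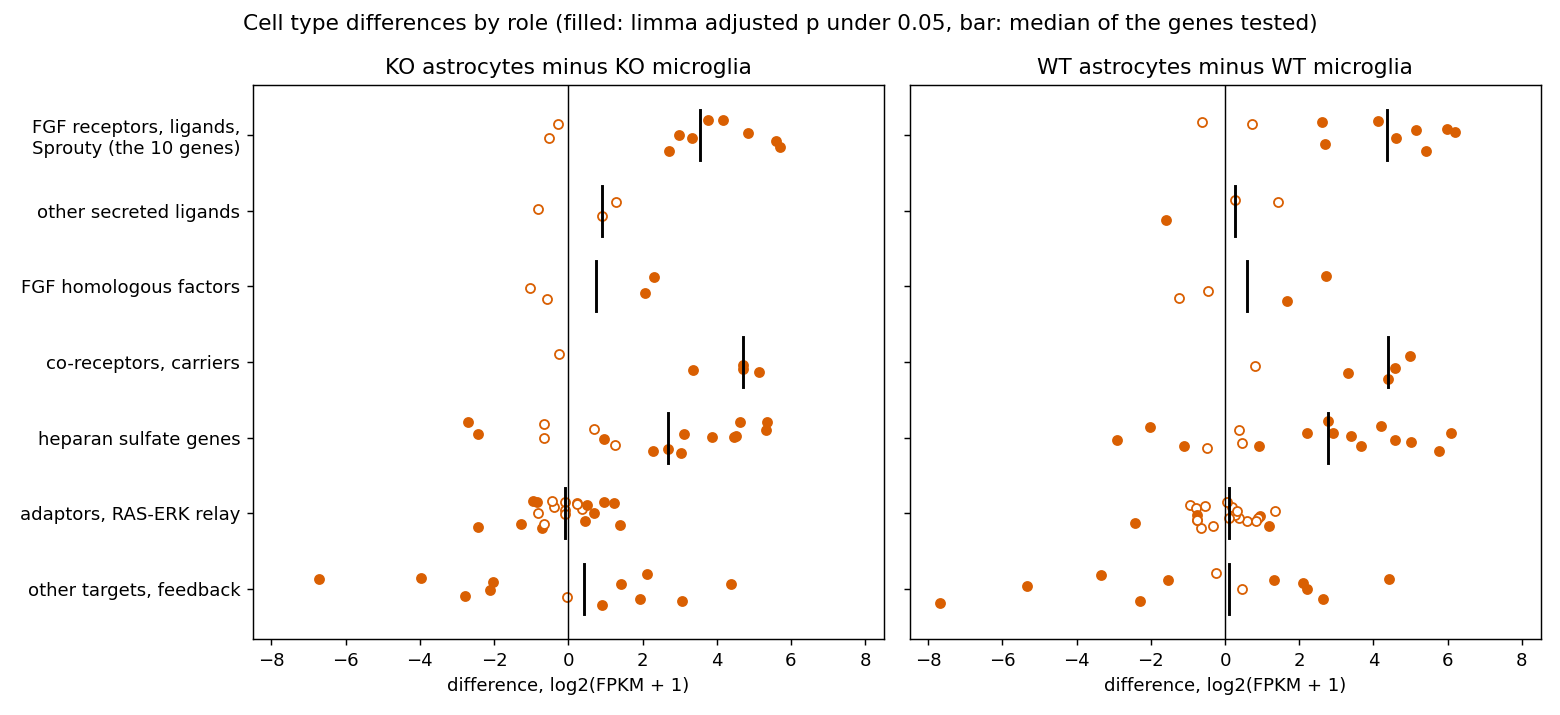
Differences of astrocytes from microglia on the log2(FPKM + 1) scale in KO (left) and WT (right) mice, for the 10 genes and the 6 other pathway lists; each point is a gene, filled where the limma adjusted p was under 0.05, and bars are medians of the tested genes. The 10 genes have medians of 3.56 and 4.36, and the adaptor and relay genes medians of -0.10 and 0.11.

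The next comparison, KO against WT microglia, asked whether loss of Il33 moved these genes in the cells that were sorted by CD11b. Of the 10 genes, 9 were tested, Spry4 being below the minimum mean of 1 FPKM. None was called by limma at an adjusted p under 0.05, and 1 had an unadjusted p under 0.05. Of the 15889 genes tested, 0.0818% were called and 7.96% had an unadjusted p under 0.05, so 1 of 9 members is near that share. The gene was Fgfrl1, with 2.89, 2.05 and 1.94 FPKM in KO microglia and 0.292, 0.987 and 0.627 FPKM in WT microglia. Every KO library lay above every WT library, as was the case for 8.41% of all genes in this direction (15.9% in either direction), and no other member was without overlap.

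The means of Fgfrl1 were 2.30 ± 0.522 FPKM in KO and 0.636 ± 0.348 FPKM in WT microglia (SD, n = 3 each), a ratio of 3.61. On the log2(FPKM + 1) scale the difference was 1.02 (SE 0.32, 95% interval 0.25 to 1.80, limma adjusted p = 0.553). An exact two-sided permutation test of FPKM gave p = 0.1, the smallest that 3 against 3 libraries allow. The difference stayed between 0.86 and 1.17 when each library was left out, and was 1.80 with a pseudocount of 0.1 FPKM. The adjusted p ranged over 0.172 to 0.955 in the alternatives. In the authors' deposited table of 483 genes for microglia, made from counts, Fgfrl1 is the only one of the 10 genes listed. That table gives Fgfrl1 mean normalised counts of 184 in KO and 45.5 in WT microglia and a log2 fold change of WT over KO of -1.45, or -2.07 before shrinkage, with an adjusted p of 0.00438.

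Beside this, the summed level of the 10 myelinating oligodendrocyte markers was 2346, 2645 and 1614 FPKM in KO microglia and 1822, 1473 and 1073 FPKM in WT microglia, with a higher mean in KO microglia for all 10 markers. Of these, Mbp averaged 1578 FPKM in KO and 1138 FPKM in WT microglia. The summed levels overlapped between the genotypes. The 10 astrocyte markers summed to 87.1 to 135 FPKM in KO and 93.3 to 145 FPKM in WT microglia, with 5 markers higher and 5 lower in KO. Of 8 oligodendrocyte precursor markers, 1 was higher in KO microglia and 7 lower. All 8 fibroblast and meningeal markers had a lower mean in KO microglia, at sums of 9.57 to 9.91 FPKM in KO and 9.53 to 30.2 FPKM in WT libraries. So did all 6 border macrophage markers, at 283 to 314 FPKM in KO and 198 to 622 FPKM in WT libraries. Both sums overlapped between the genotypes. The part of these cells in the Fgfrl1 difference was not tested.

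**Figure D3:**
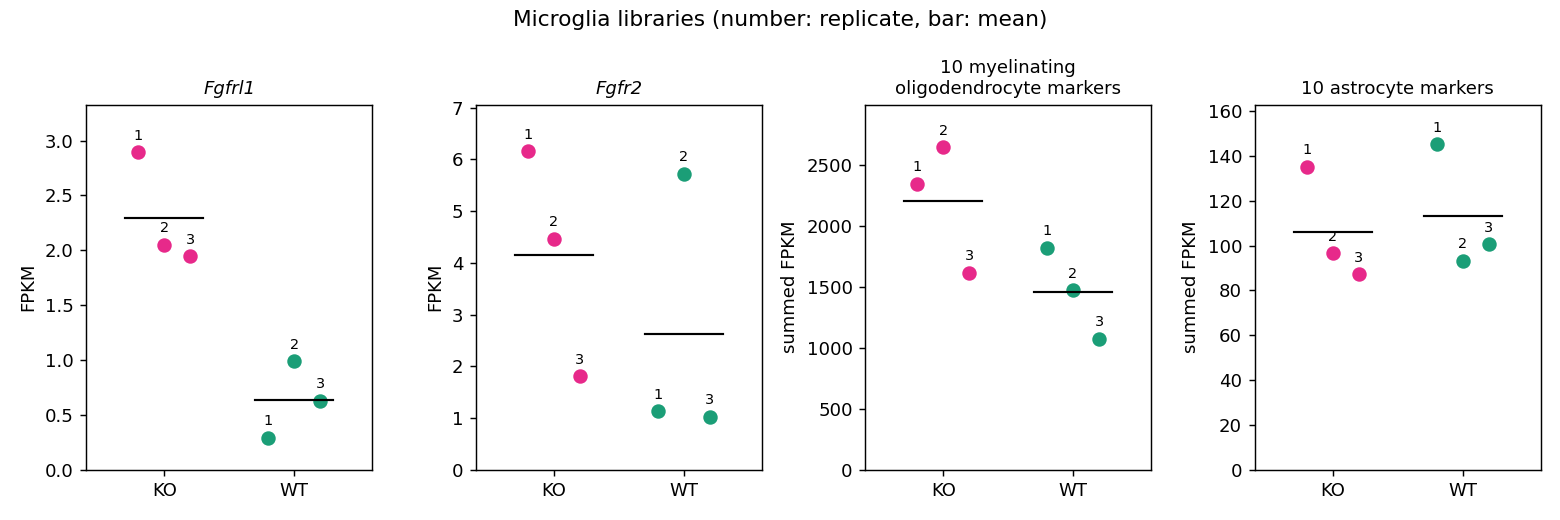
Values of Fgfrl1, Fgfr2 and the summed markers of myelinating oligodendrocytes and astrocytes in each microglia library, in FPKM, KO left and WT right; numbers are replicates and bars are means. Fgfrl1 lies at 1.94 to 2.89 FPKM in KO and 0.292 to 0.987 FPKM in WT microglia. Fgfr2 and both marker sums overlap between the genotypes. The part of other cells in the Fgfrl1 difference was not tested.

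The remaining members overlapped between KO and WT microglia, with limma adjusted p-values of 0.662 to 0.930. The log2 differences of the receptors were 0.64 for Fgfr2, 0.40 for Fgfr3 and -0.53 for Fgfr1. Those of the ligands were 0.12 for Fgf1, 1.02 for Fgf2 and -0.21 for Fgf9. The 95% interval of Fgf2 was -0.87 to 2.90, and without KO library 3, which held 6.16 FPKM, Fgf2 was under the expression minimum. Spry1 differed by 0.50 (95% interval -0.18 to 1.19) and Spry2 by 0.17 (-0.55 to 0.90).

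No gene of the 6 pathway lists was called between KO and WT microglia among 50 tested, and 3 had an unadjusted limma p under 0.05, no more than the 7.96% of all genes. The smallest p was that of Crkl, an adaptor gene, at 17.5 FPKM in KO and 10.7 FPKM in WT microglia (log2 difference 0.67, SE 0.18, adjusted p = 0.533). Fgfbp3, whose product carries FGFs, had 1.97 FPKM in KO and 0.352 FPKM in WT microglia (log2 difference 1.12, adjusted p = 0.591). The authors' deposited table lists Crkl, at mean normalised counts of 2383 in KO and 1505 in WT microglia with an adjusted p of 0.0224. It also lists the glypican Gpc6, at 162 in KO and 367 in WT microglia (adjusted p = 0.0359), and the sulfatase Sulf1, at 9.82 in KO and 119.6 in WT microglia (adjusted p = 0.00786), both low in FPKM. Smallest p-values of the remaining lists belonged to Fgf5 (-0.88), Fgf11 (-0.38) and Myc (-0.59), all not called.

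KO against WT astrocytes set genotypes side by side in the cells in which Il33 itself was measured at 106 FPKM in WT. None of the 10 genes was called by limma, none had an unadjusted p under 0.05, and none was free of overlap between the genotypes. Over all 13397 genes tested, 0.0224% were called, 4.19% had an unadjusted p under 0.05 and 4.68% were free of overlap. The log2 differences, adjusted for age, were -0.09 for Fgfr3, -0.14 for Fgfr1, -0.18 for Fgfr2 and -0.21 for Fgfrl1. Ligands differed by -0.25 (Fgf1), 0.24 (Fgf2) and -1.21 (Fgf9), and Sprouty genes by -0.11 (Spry2), -0.26 (Spry4) and 0.60 (Spry1). Adjusted p-values were 0.921 to 0.946. The members' median was -0.16, beside 0.0013 over all genes.

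The most precise of these were Fgfr3, with a 95% interval of -0.42 to 0.24, and Spry2, with -0.45 to 0.22. Exact two-sided permutation tests of FPKM gave p = 0.657 for Fgfr3 and p = 0.2 for Spry2, where 4 against 3 libraries can reach 0.0286. By mean, Fgfr3 had 166 ± 17.6 FPKM in KO and 175 ± 37.5 FPKM in WT astrocytes, and Spry2 71.6 ± 2.58 FPKM in KO and 77.1 ± 6.38 FPKM in WT astrocytes (SD, n = 4 and 3). The intervals of Fgf9 (-3.76 to 1.34) and Spry1 (-1.13 to 2.33) were wide, and both genes had an extreme value in WT library 2. Without that library the Spry1 difference was -0.23, and with the day 12 libraries alone the Fgf2 difference was -0.11. All 10 neuron markers had a higher mean in KO than in WT astrocytes, at summed levels of 63.8 to 417 FPKM in KO and 36.7 to 112 FPKM in WT libraries. Of 9 neuron markers tested, 0 had an unadjusted limma p under 0.05. Among endothelial and mural markers it was 2 of 9, with a median log2 difference of -0.33 and 5 of 10 means higher in KO. Of the astrocyte markers 1 of 10, and of the precursor markers 1 of 6, were under that p. The part of such cells in these values was not tested. Of 61 pathway genes tested, none was called and 3 had an unadjusted limma p under 0.05, a share near the 4.19% of all genes, among them Plcg1 (10.4 FPKM in KO and 24.4 FPKM in WT astrocytes, adjusted p = 0.921) and Ext2 (79.3 and 32.3 FPKM, adjusted p = 0.921). In the other lists the smallest p-values were those of Fgf18 (0.41), Fgf14 (-0.75), Ncam1 (0.16) and Ccnd1 (0.99), none called. The authors' deposited table for astrocytes lists 10 genes and none of the FGF genes.

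**Figure D4:**
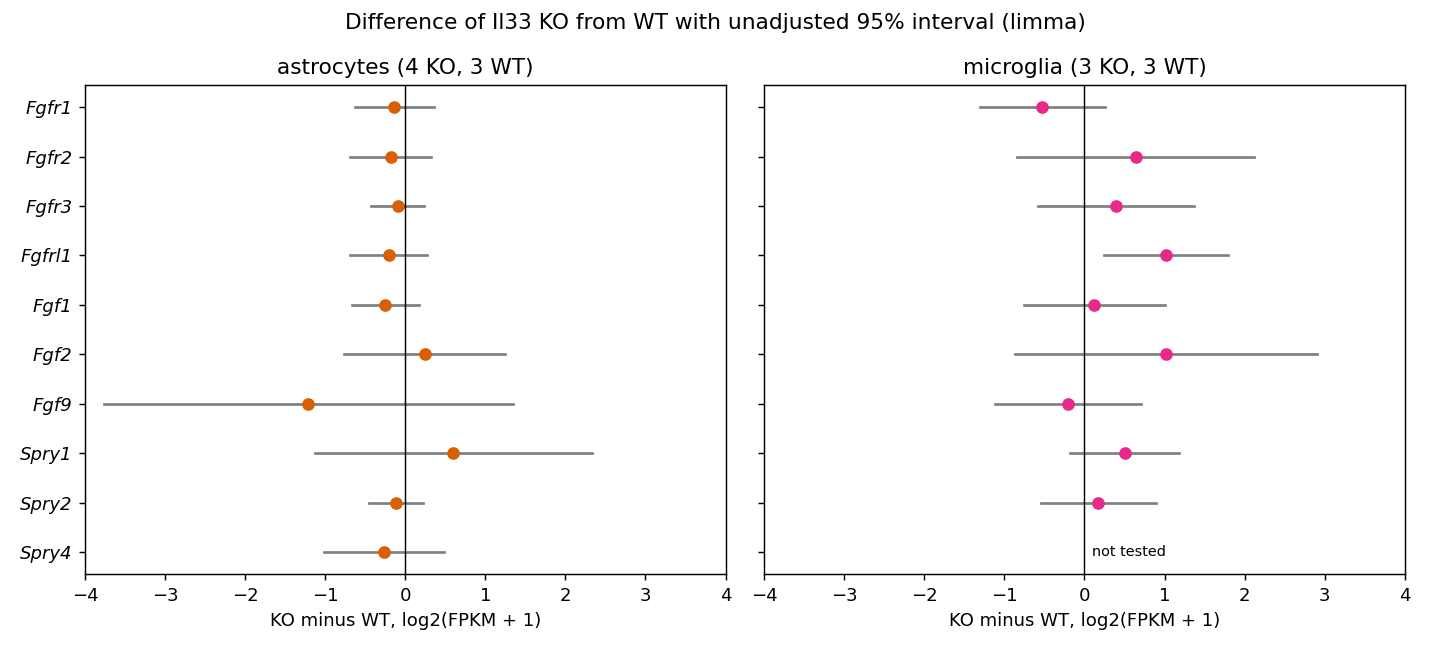
Difference of KO from WT on the log2(FPKM + 1) scale for each of the 10 genes, in astrocytes (left) and microglia (right), with the unadjusted 95% interval from limma; Spry4 was too low to be tested in microglia. The interval of Fgfrl1 in microglia, 0.25 to 1.80, is the only one that leaves out 0.

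Whether the genotype difference differed between the cell types was tested as an interaction over all 13 libraries. None of the 10 genes was called by limma and 1 had an unadjusted p under 0.05. Of all 16258 genes, 0.141% were called and 6.62% had an unadjusted p under 0.05. The member past that threshold was again Fgfrl1, whose KO minus WT difference in microglia exceeded that in astrocytes by 1.23 (SE 0.32, 95% interval 0.52 to 1.94, limma adjusted p = 0.426). This test shares its microglia libraries with the comparison of KO and WT microglia. The second largest interaction in size was that of Fgf9 (1.00, limma adjusted p = 0.884), which was not tested without WT astrocyte library 2, and Fgfr2 had 0.83 (adjusted p = 0.836). Of 62 pathway genes none was called, and 2 had an unadjusted p under 0.05, a lower share than the 6.62% of all genes, the smallest being that of Crkl (0.73, limma adjusted p = 0.661). Smallest in their own lists were Fgf5 (-0.79), Fgf12 (-0.64), Fgfbp3 (1.06), Gpc5 (0.41) and Fos (-1.37).

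Astrocytes at day 12 were set against day 9 with genotype as a covariate, with 5 libraries against 2. None of the 10 genes was called by limma and 3 had an unadjusted p under 0.05. Of the 13397 genes tested, 0.097% were called and 8.61% had an unadjusted p under 0.05. Fgf1 had 129.9, 127, 117, 121 and 140.1 FPKM at day 12 and 51.4 and 83.4 FPKM at day 9. Its log2 difference of 0.97 (SE 0.19, 95% interval 0.51 to 1.42) had a limma adjusted p of 0.215. Fgfr3 had 162 to 205 FPKM (median 184) at day 12 against 144 and 133 FPKM at day 9, a log2 difference of 0.40 (limma adjusted p = 0.530). Fgf2 had 13.0 to 41.4 FPKM (median 22.7) at day 12 against 71.6 and 33.5 FPKM at day 9 (log2 difference -1.13, limma adjusted p = 0.567).

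Without overlap between the ages were 3 of the 10 genes, Fgf1 and Fgfr3 higher and Fgfr1 lower at day 12, as against 14.7% of all genes. Fgfr1 had 21.9 to 34.1 FPKM (median 31.7) at day 12 against 43.0 and 38.6 FPKM at day 9, a log2 difference of -0.44 (limma adjusted p = 0.676). Of the other members, Spry2 differed by 0.11 and Fgfrl1 by -0.02, and Fgfr2 by -0.09. Day 9 is represented by 1 library of each genotype, so its spread within a genotype was not measured.

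**Figure D5:**
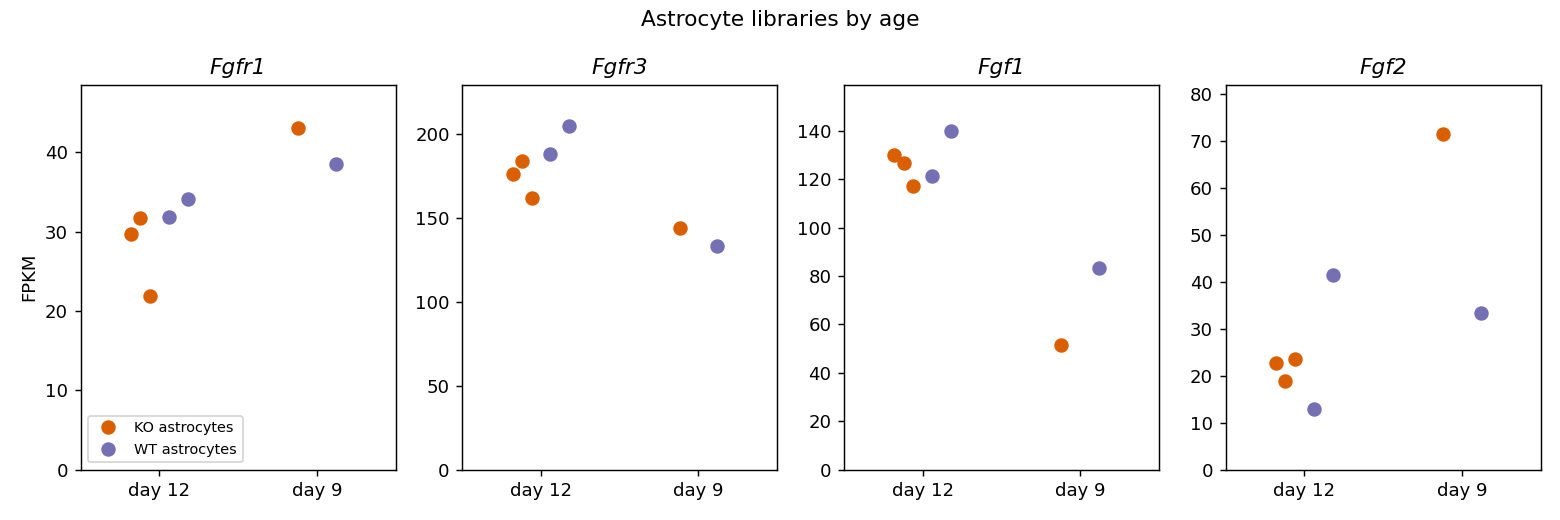
FPKM of Fgfr1, Fgfr3, Fgf1 and Fgf2 in each astrocyte library at day 12 (left) and day 9 (right), coloured by genotype. Fgf1 lies at 117 to 140.1 FPKM at day 12 and at 51.4 and 83.4 FPKM at day 9, Fgfr1 is lower and Fgfr3 higher in all 5 day 12 libraries, and Fgf2 overlaps.

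Beside the age differences, 10 of the 61 pathway genes tested had an unadjusted limma p under 0.05, beside 8.61% of all genes, and none was called. The smallest p was that of Sdc4, a syndecan (log2 difference 0.82, SE 0.15, adjusted p = 0.169). Map2k1, which encodes an ERK kinase, differed by 0.82 (adjusted p = 0.297) and Flrt2 by 0.88 (adjusted p = 0.445). Fgf13 differed by 2.65 (adjusted p = 0.495) and Fgf18 by -1.51 (adjusted p = 0.562). Il17rd had the smallest p of its list and differed by -0.75 (adjusted p = 0.603), with an unadjusted limma p of 0.0652. Of the 10 microglia markers 6, and of the 10 astrocyte markers 5, also had an unadjusted p under 0.05 between the ages, with median log2 differences of 1.15 and 0.40. The 9 neuron markers tested had a median of 1.21, with 2 under that p. Rgs5, a mural cell marker, was the only endothelial or mural marker called (log2 difference 2.06, limma adjusted p = 0.0245). The part of such cells in the age differences was not tested.

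Across the 13 libraries, the patterns most like that of Fgfr3 were sought among 12399 genes by the mean absolute difference of log2(FPKM + 1) after centring each gene on its own mean. The 4 closest were Slc38a3 (0.19), Lrp3 (0.20), Trpm3 (0.21) and Hey1 (0.22). Slc38a3, a glutamine transporter gene, averaged 192 and 177 FPKM in KO and WT astrocytes against 2.99 and 1.81 FPKM in KO and WT microglia. For Fgfr1 the closest were Lrrn1 (0.17), Olig2 (0.21), Abhd4 (0.22) and Mcc (0.22). Olig2, a transcription factor gene that is also in the oligodendrocyte precursor list, averaged 74.3 and 70.8 FPKM in KO and WT astrocytes against 5.74 and 8.97 FPKM in KO and WT microglia. The 13 points fall into 2 cell types, so the measure is set largely by the difference between them.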

How the data were processed

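Per the labels' protocols, RNA of sorted cells was extracted with TRIZOL, treated with DNase and made into libraries with NuGEN RNA-Seq V2. The submitters' processing notes name build GRCm38, Cuffnorm, Cufflinks, TopHat2 2.0.11 with Bowtie2 2.2.3, HTSeq 0.6.1p1 and DESeq2. No source used here states the settings, annotation or strand. FPKM of 39171 genes in 13 libraries were deposited, scaled between libraries in an unstated way. Another deposited table for each cell type holds the authors' normalised signal per genotype (means of normalised counts), log2 fold changes of WT over KO, a score (the test statistic) and p-values, per the file headers. The direction of those fold changes was checked against the means.

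Coordinates and exon overlaps came from GENCODE on GRCm38, which held 37691 (96.2%) of the identifiers. Absolute depth is unknown, relative depth was read from the steps of low FPKM values, and no count test was run. Libraries were grouped by their labels. The limma package 3.58.1 (R 4.3.3) tested differences (eBayes with trend, two-sided) on log2(FPKM + 1), which understates changes of low genes, for genes with a mean of at least 1 FPKM over the fitted libraries. A gene was called at a Benjamini-Hochberg adjusted p under 0.05 over all genes tested. Microglia were fitted alone, astrocytes alone with age and genotype, and cell types and the interaction over all 13 libraries with age. Exact permutation tests compared mean FPKM between genotypes. The fits were tested on simulated data. Alternatives were a pseudocount of 0.1, no filter, quantile normalisation, no variance trend, other sample sets, a replicate block, and leaving out each library.

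The 10 genes, the 6 pathway and 9 marker lists and the tests were chosen with earlier results of these data known. Named were the 10 genes in every comparison. Of each pathway list, the up to 3 called genes with the largest cell type difference per direction were taken, and the gene with the smallest p where none was called. Pathway genes in the authors' tables and the 4 genes most like Fgfr3 and Fgfr1 were added. The limma p-values set each difference against the spread between the libraries given, as estimated by eBayes with help from all genes tested. Permutation p-values place the difference among relabellings of those libraries.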

Additional observations from a re-analysis of the deposited data

Results flagged for a closer look

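In KO astrocytes, 19 measures (the 10 genes and summed marker lists) were checked for a library far from the other 3, and 3 such values were found, where chance gives about 1 in 20. Fgf1 was 51.4 FPKM in KO astrocyte library 2, against 117 to 129.9 FPKM in the other 3. Fgf2 was 71.6 FPKM in the same library, against 18.8 to 23.7 FPKM in the others. Library 2 is the only KO astrocyte library taken at day 9. The border macrophage markers summed to 4.61 FPKM in KO astrocyte library 3.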

How the results depend on the processing

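The number of the 10 genes called was 0 in both genotype comparisons, in the age comparison and in the interaction, and 8 in both cell type comparisons, under each alternative run. Of 910 alternative values of single members, 879 kept their direction and side of the threshold and 31 reversed, none of them called. Counts over all genes moved more. KO versus WT microglia had 13 genes called, 25 with log2(FPKM + 0.1), 7 with no filter, 37 in 1 fit of all 13 libraries, 3 with a replicate block and 18 to 48 when leaving out a library (48 without KO library 1). KO versus WT astrocytes had 3, then 5 with the smaller pseudocount, 0 with no filter, 7 in the fit of 13, 0 at day 12 alone, 0 with a replicate block and 0 to 8 when leaving out a library. Day 12 versus day 9 had 13, then 7 with the smaller pseudocount, 35 with no filter and 6 to 82 when leaving out a library. The interaction had 23, then 37 with no filter, 1 with a replicate block and 15 to 75 when leaving out a library.

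Reversed were, in KO versus WT astrocytes, Fgf2 at day 12 alone (-0.11); between cell types, Fgf9 in WT with log2(FPKM + 0.1) (-0.19) and in KO with quantile normalisation (0.25); and in the interaction, Spry1 (0.024) and Spry4 (0.012) with quantile normalisation and Spry4 at day 12 alone (0.33). Leaving out a library gave ranges across 0 for Fgf1 in microglia (-0.011 to 0.35), for Fgf2 (-0.11 to 0.85) and Spry1 (-0.23 to 1.27) in astrocytes, for Spry1 between WT cell types (-1.03 to 0.34), and for Spry1 (-0.76 to 0.73) and Spry4 (-0.31 to 0.33) in the interaction. Between ages they were -0.20 to 0.039 for Fgfr2, -0.12 to 0.047 for Fgfrl1, -0.30 to 2.09 for Fgf9, -1.63 to 0.64 for Spry1 and -0.28 to 0.90 for Spry4. The causes were not tested.

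Quantile normalisation moved the median log2 difference of all genes to 0.04 in both genotypes between the cell types, against -0.24 in KO and -0.21 in WT as deposited. The share of calls higher in astrocytes was 54.4% in KO and 55.7% in WT mice with it, against 44.0% and 45.7%. Between the ages that share was 40.0% of 10 calls, against 53.8% of 13. Same-numbered libraries of the 2 genotypes correlated in their deviations at 0.012 to 0.028 in microglia and at -0.079 to 0.018 in astrocytes. Those of different number correlated at -0.021 to -0.00045 in microglia and at -0.057 to 0.13 in astrocytes. Values this small cannot settle whether the numbers pair the samples. In microglia each KO library correlated best with its own number, a hint from the data and not the design. For the cell type contrasts no replicate block was fitted. Absolute depth is unknown, and members near 1 FPKM carry the most error.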

Other observations

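A pair of targets of the ERK cascade, chosen after their values were seen, differed in direction from each other between the cell types. Dusp6, which encodes an ERK phosphatase induced by FGF signalling, averaged 13.4 FPKM in KO and 19.6 FPKM in WT astrocytes, against 62.2 FPKM in KO and 62.1 FPKM in WT microglia. It was lower in astrocytes by log2 differences of -2.04 (limma adjusted p = 0.000221) in KO and -1.53 (adjusted p = 0.00279) in WT mice. Etv5, a transcription factor gene induced by FGF, averaged 170.0 FPKM in KO and 165 FPKM in WT astrocytes, against 92.0 FPKM in KO and 69.0 FPKM in WT microglia. It was higher in astrocytes by 0.90 (limma adjusted p = 0.00527) in KO and 1.32 (adjusted p = 0.000873) in WT mice. Spry2 went the way of Etv5, and Dusp6 that of Egr1, Fos and Myc.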
